A study of Homo sapiens with 8 samples.

Results

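The genes described here are 35 genes of the amino acid response driven by ATF4 and of the unfolded protein response of the endoplasmic reticulum (ER), chosen by gene symbol. They divide into an amino acid arm of 22 genes and a chaperone arm of 13, out of 19426 genes named on the array and 18732 with a value bright enough to test. All 35 members were measured. The cells were NTera2/D1, a human embryonal carcinoma line that leaves its stem-cell-like state when given retinoic acid (RA), and their RNA was read on Affymetrix exon arrays. The 4 groups were RA with a small interfering RNA against RNF20 (siRNF20), RA with the control siRNA against the bacterial gene LacZ (siLacZ), DMSO with siRNF20 and DMSO with siLacZ. RNF20 is a ligase that attaches ubiquitin to histone H2B. RA was given at 10 µM for 72 h, and the medium of all groups held sodium pyruvate and nonessential amino acids. Each group held 2 arrays, described as biological duplicates and numbered GF117 and GF120.

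When amino acids run short or unfolded proteins fill the ER, kinases phosphorylate the initiation factor eIF2, general translation slows and the mRNA of ATF4 is translated more. ATF4 then switches on genes that make and import amino acids, whose promoters often carry a C/EBP-ATF response element (CARE). In the other branches of the unfolded protein response the sensor IRE1, encoded by ERN1, splices the XBP1 mRNA and the sensor ATF6 is cleaved, and both factors switch on chaperone genes through ER stress response elements (ERSE). An mRNA array reads neither the translation of ATF4 nor the splicing of XBP1 in the gene values used here.

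Each array gave 1384231 intensities with a median of 18.35 on the GF117 array of RA siLacZ and of 17.18 to 17.24 on the 7 others. That GF117 array stood apart. Its gene values correlated at 0.135 to 0.239 with those of the 7 others, which correlated at 0.908 to 0.975 among themselves. The median log2 intensity of 8 reference genes was 8.69 on it, against 11.55 to 11.91 elsewhere. Values from 7 arrays are therefore given first, so that the GF120 array stands alone for RA siLacZ and is assumed to vary like the others. With all 8 arrays 0 genes and 0 members were called by limma in each of the 5 comparisons, while 27 to 1510 of 18747 genes and 0 to 7 members had an unadjusted p below 0.05. In the DMSO arrays the median log2 intensity of 10 embryonal carcinoma markers was 9.59 to 9.78. Among them POU5F1 read 7.43 to 7.75 and NANOG 9.76 to 9.96, while ZFP42 was dim at 5.17 to 5.80. Precision depends on how many arrays there are and on the gene. The standard error (SE) of the RA change in siRNF20 cells was 0.10 for HSPA5 and 0.41 for DDIT4.

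The promoters of 4 members whose RA response passed the test in at least 1 background are shown because they hold a match to an element of their arm. Each runs from 250 bases before to 50 bases after the RefSeq gene start in GRCh38.p14, is written 5′ to 3′ on the gene's strand, and has the match in capitals. ASNS lies at chr7:97872359-97872658 (minus strand) and CHAC1 at chr15:40953221-40953520 (plus strand), and their capitals mark CARE. HSPA5 lies at chr9:125241294-125241593 (minus strand) and XBP1 at chr22:28800520-28800819 (minus strand), and their capitals mark both ends of ERSE. In CHAC1 the match is on the opposite strand and reads TGATGCAAC there.
ASNS: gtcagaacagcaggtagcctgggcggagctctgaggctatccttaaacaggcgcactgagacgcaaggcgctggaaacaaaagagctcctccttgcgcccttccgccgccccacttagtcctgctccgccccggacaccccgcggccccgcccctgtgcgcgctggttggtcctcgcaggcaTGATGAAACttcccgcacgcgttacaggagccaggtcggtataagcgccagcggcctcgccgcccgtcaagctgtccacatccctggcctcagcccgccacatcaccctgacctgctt
CHAC1: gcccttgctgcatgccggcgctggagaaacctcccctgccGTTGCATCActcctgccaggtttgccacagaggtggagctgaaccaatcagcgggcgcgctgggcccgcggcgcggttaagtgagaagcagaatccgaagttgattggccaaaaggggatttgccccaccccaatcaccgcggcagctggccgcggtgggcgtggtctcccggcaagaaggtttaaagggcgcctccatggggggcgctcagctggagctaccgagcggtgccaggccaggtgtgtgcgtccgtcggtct
HSPA5: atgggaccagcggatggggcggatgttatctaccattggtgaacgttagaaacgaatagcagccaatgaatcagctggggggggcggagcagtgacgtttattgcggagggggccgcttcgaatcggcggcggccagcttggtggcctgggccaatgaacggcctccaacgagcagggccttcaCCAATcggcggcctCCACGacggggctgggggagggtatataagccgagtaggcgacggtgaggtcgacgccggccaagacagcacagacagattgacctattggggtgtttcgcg
XBP1: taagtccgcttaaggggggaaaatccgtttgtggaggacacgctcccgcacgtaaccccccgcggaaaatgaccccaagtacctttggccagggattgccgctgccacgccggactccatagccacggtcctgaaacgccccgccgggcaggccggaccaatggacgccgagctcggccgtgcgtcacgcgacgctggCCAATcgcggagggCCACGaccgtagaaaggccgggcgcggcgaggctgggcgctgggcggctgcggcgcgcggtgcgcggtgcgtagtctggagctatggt

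The promoters of both arms were searched for these elements. RefSeq promoters were found for 30 of the 35 members, 17 of the amino acid arm with 26 promoters and all 13 of the chaperone arm with 15. ALDH1L2, NUPR1, PSPH, SHMT2 and SLC7A11 had none in the table used. CARE, searched as TGATGNAAN on both strands, matched 4 of 26 promoters of the amino acid arm (15.4%; ASNS, ATF3, CHAC1 and SLC3A2), 1 of 15 of the chaperone arm (HERPUD1) and 3.61% of all 35116 promoters of this length. ERSE, searched as CCAAT, 9 free bases and CCACG, matched 5 of 15 promoters of the chaperone arm (33.3%; HSPA5, XBP1, HSP90B1, CALR and CRELD2), 0 of the amino acid arm and 0.0769% of all. The related ERSE-II, ATTGG with 1 free base and CCACG, matched HERPUD1 and SDF2L1 (13.3% of the chaperone arm's promoters), 0 of the amino acid arm and 0.0541% of all. The element TGACGTGG, known as UPRE, matched 0 promoters of both arms and 0.729% of all. No 2 matches in these promoters overlapped. Of the called members, MTHFD2 and VLDLR held no match to any of these elements, and neither did a further promoter of ASNS or of XBP1. A match describes these letters in this window and is not evidence of binding.

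RA lowered a few genes of amino acid and folate metabolism in both backgrounds, MTHFD2 and ASNS, and raised VLDLR in both. CHAC1 and ALDH1L2 of the amino acid arm also passed in siRNF20 cells, and HSPA5 and XBP1 of the chaperone arm passed in siLacZ cells. Calls rest on limma's adjusted p below 0.05 over all 18732 genes. In siRNF20 cells 5 of 35 members passed (3.92% of all genes did), 1 higher (1.79% of all genes) and 4 lower (2.13% of all genes). In siLacZ cells 5 of 35 passed as well (3.91% of all genes), 1 higher (1.88%) and 4 lower (2.03%). With all 8 arrays these calls ended, and the changes in siLacZ cells were -3.30 for MTHFD2, -2.33 for ASNS, -2.37 for HSPA5 and -2.08 for XBP1. These siLacZ values include the GF117 RA siLacZ array, on which the reference genes were low too. The siRNF20 change is taken between other arrays, but that array then enters the choice of bright rows, and the fit pools the spread of all groups. ALDH1L2 in siRNF20 cells went from -1.67 to -1.48. MTHFD2 stayed at -0.98 in siRNF20 cells, while its SE rose from 0.14 to 1.16. Fewer cells of a type and less RNA per cell cannot be told apart in these bulk samples.

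**Figure D1:**
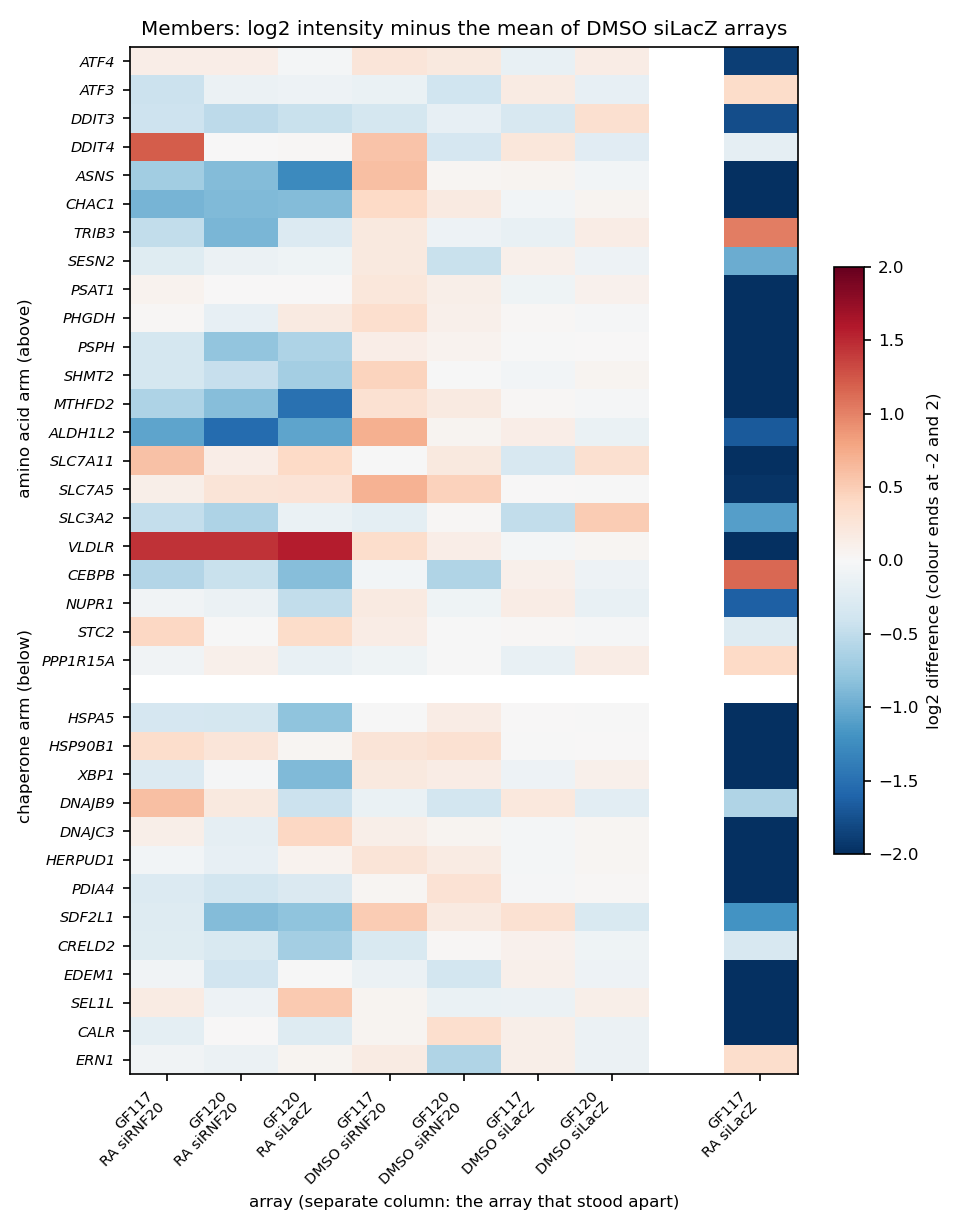
Log2 intensity of each member in each array minus the mean of the DMSO siLacZ arrays, with the amino acid arm above and the chaperone arm below, and colour ending at -2 and 2. The RA columns are blue for MTHFD2, ASNS, CHAC1 and ALDH1L2 and red for VLDLR, and the separate column is the GF117 RA siLacZ array, where most members are far lower.

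MTHFD2, an enzyme of mitochondrial one-carbon metabolism, fell in both backgrounds. Its log2 intensity was 9.60 and 9.36 in RA siRNF20 (GF117, then GF120) and 8.72 in RA siLacZ (GF120 alone), against 10.52 and 10.39 in DMSO siRNF20 and 10.24 and 10.18 in DMSO siLacZ. All 3 RA arrays lay below all 4 DMSO arrays. The RA arrays named for each gene are these 3, without GF117 RA siLacZ. How many of all genes separate RA from DMSO arrays in this way was not counted, so for each gene it is a description only. The log2 change was -0.98 in siRNF20 cells (SE 0.14, 1.97-fold lower, adjusted p = 0.00365, n = 2 RA and 2 DMSO arrays) and -1.49 in siLacZ cells (SE 0.17, 2.82-fold lower, adjusted p = 0.00115, n = 1 RA and 2 DMSO arrays). All 10 of its array rows were lower in each background. With all 8 arrays both calls ended, and no other alternative run ended either.

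ASNS, which makes asparagine, fell in both backgrounds too. It stood at 8.06 and 7.88 in RA siRNF20 and 7.48 in RA siLacZ, against 9.35 and 8.79 in DMSO siRNF20 and 8.82 and 8.69 in DMSO siLacZ. The RA and DMSO arrays did not overlap. The change was -1.10 in siRNF20 cells (SE 0.21, 2.15-fold lower, adjusted p = 0.0169) and -1.27 in siLacZ cells (SE 0.25, 2.42-fold lower, adjusted p = 0.0238), with 23 of 24 and 24 of 24 array rows lower. The siRNF20 call ended when GF117 DMSO siRNF20, the array with the highest ASNS value, was left out (-0.82, adjusted p = 0.174), when GF120 RA siRNF20 was left out (-1.01, adjusted p = 0.0673) and without the intensity trend of the variance (adjusted p = 0.0627). The siLacZ call ended when either DMSO siLacZ array was left out (GF117 -1.21, adjusted p = 0.123; GF120 -1.33, adjusted p = 0.0781), with the mean over rows (adjusted p = 0.0515) and without the trend (adjusted p = 0.0778).

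ALDH1L2, a mitochondrial folate enzyme like MTHFD2, was dim. It read 4.47 and 3.99 in RA siRNF20 and 4.47 in RA siLacZ, against 6.24 and 5.58 in DMSO siRNF20 and 5.66 and 5.40 in DMSO siLacZ. All RA arrays were below all DMSO arrays, and the RA values were near the median log2 intensity of an array, 4.10 to 4.11. ALDH1L2 fell in siRNF20 cells (log2 -1.67, SE 0.32, 3.19-fold, adjusted p = 0.0185) in 20 of 20 rows. In siLacZ cells the change was -1.05 (SE 0.39, adjusted p = 0.206) with 19 of 20 rows lower, and the difference between the responses was -0.62 (SE 0.50, adjusted p = 0.999). An offset of 16 before the logarithm gave -1.13 in siRNF20 cells, still called, while the call ended when GF117 DMSO siRNF20 (-1.34, adjusted p = 0.175) or GF120 RA siRNF20 (-1.43, adjusted p = 0.0821) was left out.

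CHAC1, which breaks down glutathione, had 5.27 and 5.33 in RA siRNF20 and 5.33 in RA siLacZ, against 6.60 and 6.38 in DMSO siRNF20 and 6.16 and 6.25 in DMSO siLacZ. The 3 RA arrays lay close together and below every DMSO array. CHAC1 fell in siRNF20 cells (log2 -1.20, SE 0.22, 2.29-fold, adjusted p = 0.0147), while in siLacZ cells the change was -0.87 (SE 0.26, adjusted p = 0.122). It rests on 6 array rows, and with a stricter filter on dim rows the change in siRNF20 cells was -0.26 (adjusted p = 0.720). The call also ended when GF117 DMSO siRNF20 (adjusted p = 0.154), GF120 DMSO siRNF20 (adjusted p = 0.0650) or GF117 RA siRNF20 (adjusted p = 0.0538) was left out.

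VLDLR, a receptor for lipoproteins and for reelin that ATF4 can induce under ER stress, was the member that rose. Its log2 intensity was 9.94 and 9.94 in RA siRNF20 and 10.06 in RA siLacZ, against 8.84 and 8.63 in DMSO siRNF20 and 8.46 and 8.53 in DMSO siLacZ. No DMSO array came near the RA arrays, and 25 of 25 rows were higher in each background. The change was 1.21 in siRNF20 cells (SE 0.15, 2.31-fold higher, adjusted p = 0.00156) and 1.57 in siLacZ cells (SE 0.18, 2.96-fold higher, adjusted p = 0.00118). With all 8 arrays the value in siLacZ cells was -0.38, since VLDLR read 6.16 on the GF117 RA siLacZ array.

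**Figure D2:**
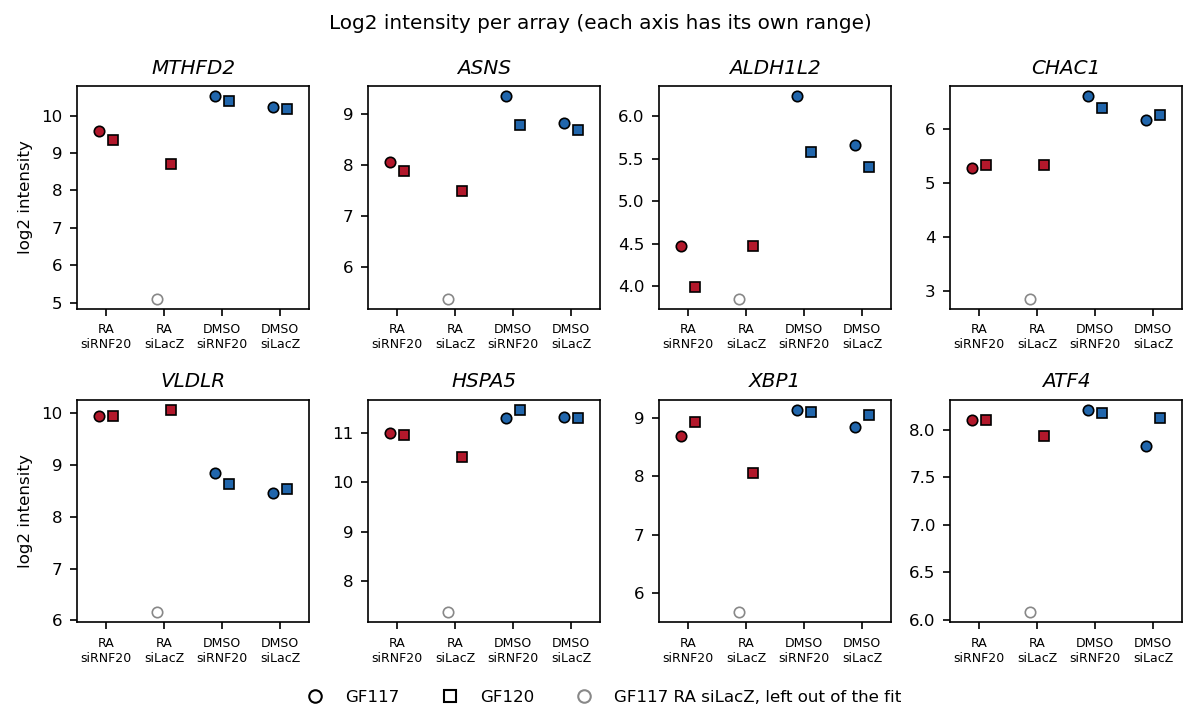
Log2 intensity per array of the 7 called members and ATF4, with circles for GF117, squares for GF120 and the open circle for the GF117 RA siLacZ array; each axis has its own range. The 3 filled RA points lie below the DMSO points for MTHFD2, ASNS, ALDH1L2, CHAC1 and HSPA5 and above them for VLDLR and overlap them for ATF4, while the open circle lies below every DMSO point in each panel.

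ATF4 itself, the factor of this arm, did not pass. It read 8.10 and 8.10 in RA siRNF20 and 7.93 in RA siLacZ, against 8.21 and 8.17 in DMSO siRNF20 and 7.83 and 8.12 in DMSO siLacZ. The groups overlapped, and the RA change was -0.09 in siRNF20 cells (SE 0.17) and -0.04 in siLacZ cells (SE 0.21). DDIT3, the stress factor CHOP, read 6.99 and 6.88 in RA siRNF20 and 6.95 in RA siLacZ, against 7.05 and 7.24 in DMSO siRNF20 and 7.09 and 7.72 in DMSO siLacZ. Every RA array was below every DMSO array, but by less than the gap between the DMSO siLacZ arrays, and its changes of -0.21 in siRNF20 cells (SE 0.24) and -0.45 in siLacZ cells (SE 0.29) did not pass.

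The other regulators of the arm gave no call in either background. ATF3, a stress-induced factor of the same family, had RA changes of 0.00 in siRNF20 and -0.10 in siLacZ cells, and CEBPB, a dimer partner of ATF4, of -0.20 in siRNF20 and -0.85 in siLacZ cells (SE 0.29, adjusted p = 0.164). TRIB3, a pseudokinase that restrains ATF4, had changes of -0.74 in siRNF20 (SE 0.25, adjusted p = 0.160) and -0.27 in siLacZ cells. The stress-response gene NUPR1 had -0.14 in siRNF20 and -0.49 in siLacZ cells, from 3 rows. PPP1R15A, which directs the dephosphorylation of eIF2, had 0.07 in siRNF20 and -0.15 in siLacZ cells. DDIT4 and SESN2 inhibit mTORC1, and their changes were 0.49 and -0.05 in siRNF20 and 0.03 and -0.09 in siLacZ cells. The CEBPB value in siLacZ cells was -1.35 with the mean over rows, past the threshold (adjusted p = 0.0147).

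In serine synthesis and its entry into the folate cycle no member passed. PHGDH, PSAT1 and PSPH carry out the steps from a glycolytic intermediate to serine. PHGDH had RA changes of -0.29 in siRNF20 and 0.17 in siLacZ cells, and PSAT1 of -0.13 in siRNF20 and 0.00 in siLacZ cells. PSPH, the last step, was at 7.61 and 7.16 in RA siRNF20 and 7.34 in RA siLacZ, against 8.08 and 8.02 in DMSO siRNF20 and 7.95 and 7.96 in DMSO siLacZ. Its RA arrays were all below its DMSO arrays, with changes of -0.67 in siRNF20 (SE 0.20, adjusted p = 0.114) and -0.62 in siLacZ cells (SE 0.24, adjusted p = 0.238), neither past the threshold. SHMT2, which feeds serine carbon into mitochondrial folate ahead of MTHFD2, had changes of -0.62 in siRNF20 (SE 0.19, adjusted p = 0.123) and -0.68 in siLacZ cells (SE 0.23, adjusted p = 0.172).

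None of the transporters passed. SLC7A11, the cystine carrier, had RA changes of 0.27 in siRNF20 and 0.39 in siLacZ cells. SLC7A5, the carrier of large neutral amino acids, had -0.40 in siRNF20 cells (SE 0.16, adjusted p = 0.279), with 20 of 20 rows lower, and 0.27 in siLacZ cells (SE 0.20), with 18 of 20 rows higher. Its partner chain SLC3A2 had -0.47 in siRNF20 and -0.13 in siLacZ cells. The secreted glycoprotein STC2 had 0.13 in siRNF20 and 0.37 in siLacZ cells. Over the 22 members of the amino acid arm the median RA change was -0.20 in siRNF20 cells, with 17 below 0, and -0.14 in siLacZ cells, with 15 below 0. The median of all genes was -0.0268 in siRNF20 cells, where 53.6% were below 0, and -0.0523 in siLacZ cells, where 55.3% were.

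In the chaperone arm HSPA5, the main ER chaperone BiP, fell in siLacZ cells. It stood at 10.99 and 10.96 in RA siRNF20 and 10.52 in RA siLacZ, against 11.31 and 11.47 in DMSO siRNF20 and 11.33 and 11.31 in DMSO siLacZ. All RA arrays were below all DMSO arrays. The change was -0.41 in siRNF20 cells (SE 0.10, 1.33-fold, adjusted p = 0.0622), with 24 of 25 rows lower, and -0.80 in siLacZ cells (SE 0.13, 1.74-fold, adjusted p = 0.00811), with 25 of 25 rows lower. The siLacZ call was lost without the intensity trend of the variance (adjusted p = 0.139). With the mean over rows HSPA5 passed in siRNF20 cells as well (-0.47, adjusted p = 0.0255).

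XBP1, the factor that ERN1 activates, was at 8.68 and 8.92 in RA siRNF20 and 8.06 in RA siLacZ, against 9.14 and 9.10 in DMSO siRNF20 and 8.85 and 9.05 in DMSO siLacZ. The RA siLacZ array was the lowest, and the RA siRNF20 arrays overlapped the DMSO siLacZ arrays. The XBP1 change was -0.32 in siRNF20 cells (SE 0.16, adjusted p = 0.399), and in siLacZ cells it fell (log2 -0.88, SE 0.20, 1.84-fold, adjusted p = 0.0396). The size in siLacZ cells depends on the summary over rows, since the median of its 12 row differences was -0.35 and the mean over rows gave -0.60 (adjusted p = 0.0706). The call was lost without each of the 4 DMSO arrays in turn (adjusted p 0.0807 to 0.162) and without the intensity trend (adjusted p = 0.130).

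**Figure D3:**
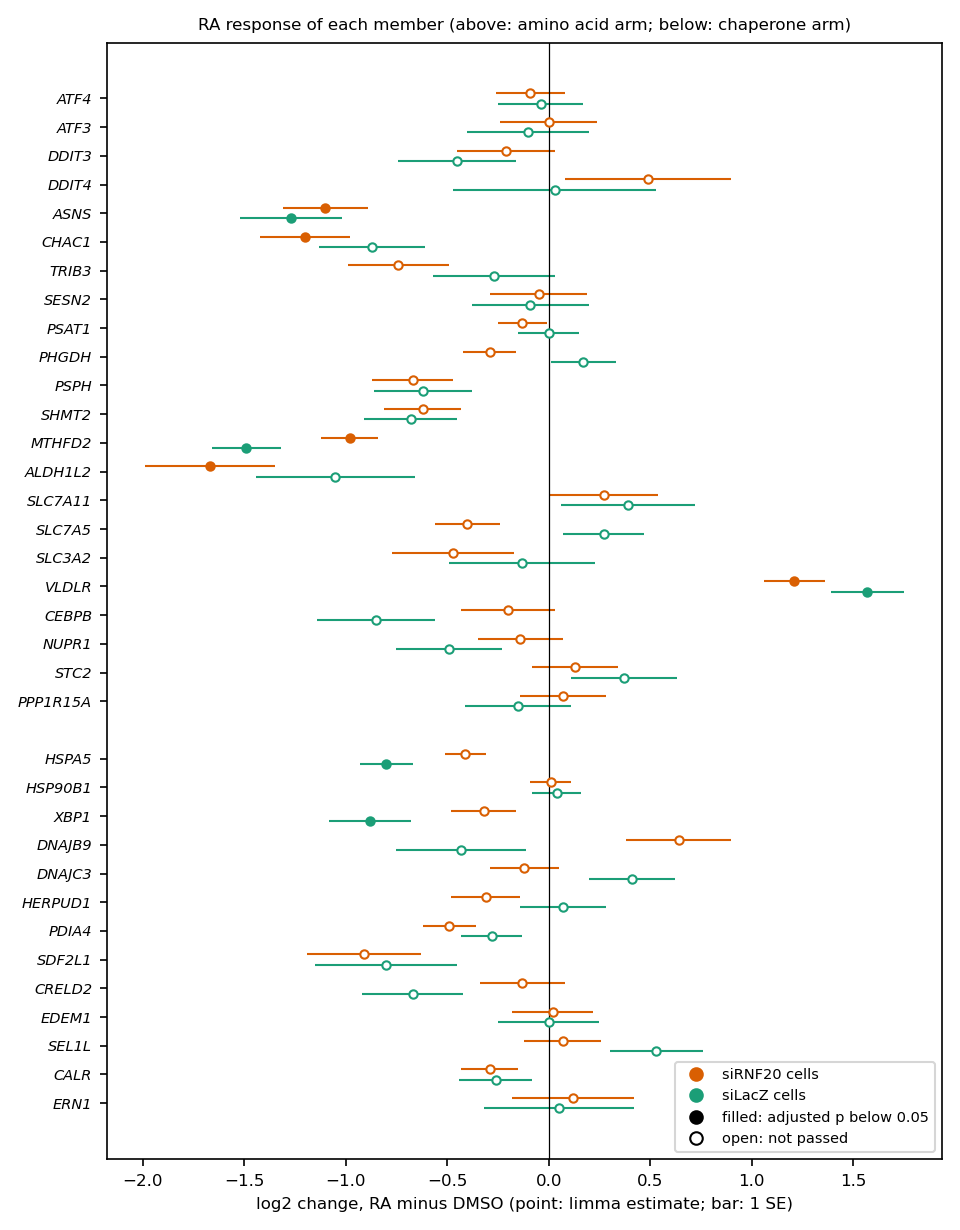
RA change of each member (RA minus DMSO, log2) in siRNF20 and siLacZ cells with bars of 1 SE, filled where limma's adjusted p was below 0.05. Filled points are 5 in each background, and in siRNF20 cells all of them lie in the upper panel, the amino acid arm. There HSPA5 and PDIA4 of the chaperone arm were near the threshold (limma's adjusted p = 0.0622 and 0.0698).

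The other chaperones passed in neither background. HSP90B1, the ER chaperone GRP94, had RA changes of 0.01 in siRNF20 (SE 0.10) and 0.04 in siLacZ cells (SE 0.12), and the lectin chaperone CALR of -0.29 in siRNF20 and -0.26 in siLacZ cells. PDIA4, a disulphide isomerase, was at 10.23 and 10.13 in RA siRNF20 and 10.22 in RA siLacZ, against 10.55 and 10.79 in DMSO siRNF20 and 10.48 and 10.53 in DMSO siLacZ. The RA arrays were all lower, with changes of -0.49 in siRNF20 (SE 0.13, adjusted p = 0.0698) and -0.28 in siLacZ cells (SE 0.15). SDF2L1, a partner of BiP measured by 4 rows, had -0.91 in siRNF20 (SE 0.28, adjusted p = 0.138) and -0.80 in siLacZ cells (SE 0.35, adjusted p = 0.292). The ER protein CRELD2 had -0.13 in siRNF20 and -0.67 in siLacZ cells (SE 0.25). With the mean over rows PDIA4 (-0.51, adjusted p = 0.0310) and SDF2L1 (-0.82, adjusted p = 0.0493) passed in siRNF20 cells.

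Co-chaperones and the genes of ER-associated degradation gave no call. DNAJB9, a BiP co-chaperone that acts on IRE1, had RA changes of 0.64 in siRNF20 (SE 0.26) and -0.43 in siLacZ cells (SE 0.32). DNAJC3, a co-chaperone of BiP that also inhibits an eIF2 kinase, had -0.12 in siRNF20 and 0.41 in siLacZ cells. SEL1L, an adaptor of the ubiquitin ligase that removes misfolded ER proteins, had 0.07 in siRNF20 and 0.53 in siLacZ cells (SE 0.23, adjusted p = 0.289). In siLacZ cells 30 of 30 SEL1L rows were higher with RA, although the gene did not pass. HERPUD1 and EDEM1, which also act in this degradation, had -0.31 and 0.02 in siRNF20 and 0.07 and 0.00 in siLacZ cells. The sensor ERN1 had 0.12 in siRNF20 and 0.05 in siLacZ cells, and none of the 3 passed. The median of the 13 chaperone arm members was -0.13 in siRNF20 cells and -0.26 in siLacZ cells, with 8 below 0 in each.

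Rows of one gene read the same RNA samples and are not replicates. Of 33 members with at least 5 rows, 8 had every row lower with RA in siRNF20 cells (24.2%, against 5.60% of 15048 genes), and 4 in siLacZ cells (12.1%, against 5.26%). Every row was higher for 2 members in siRNF20 cells (6.06%, against 4.27% of genes) and for 2 in siLacZ cells (6.06%, against 2.94%).

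Markers of cell state moved with RA in the same arrays. Over all genes, 2.13% were called lower and 1.79% higher in siRNF20 cells, and 2.03% lower and 1.88% higher in siLacZ cells. Of 10 embryonal carcinoma markers 5 fell in siRNF20 and 5 in siLacZ cells, NANOG with log2 changes of -2.76 and -3.82. POU5F1, CRIPTO and L1TD1 also fell in both backgrounds, while DPPA4 passed only in siRNF20 cells. SOX2 passed only in siLacZ cells (-0.62, against 0.22 in siRNF20 cells). LIN28A, LIN28B, PODXL and ZFP42 passed in neither. The median log2 intensity of the 10 markers was 8.23 and 8.33 in RA siRNF20 and 7.50 in RA siLacZ. It was 9.78 and 9.75 in DMSO siRNF20 and 9.77 and 9.59 in DMSO siLacZ. The median of 6 neural progenitor markers was 8.62 and 8.39 in RA siRNF20 and 8.32 in RA siLacZ, against 7.41 and 7.36 in DMSO siRNF20 and 7.43 and 7.12 in DMSO siLacZ. Of these 6, 4 rose in siRNF20 and 3 in siLacZ cells. The part of this change of cell state in the members' values was not tested.

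Genes of the same pathway outside the members were read from further lists. Beside their counts, 2.13% of all genes were called lower with RA in siRNF20 cells and 2.03% in siLacZ cells. Aminoacyl-tRNA synthetases, which load amino acids onto tRNA and are ATF4 targets, had 3 of 9 measured genes fall with RA in siRNF20 cells (AARS1 -0.88, YARS1 -0.84 and TARS1 -0.80) and 2 in siLacZ cells (TARS1 -1.02 and YARS1 -0.84). The median of the 9 was -0.52 in siRNF20 and -0.55 in siLacZ cells, with 8 below 0 each time. TARS1 read 9.45 and 9.25 in RA siRNF20 and 9.22 in RA siLacZ, against 10.22 and 10.07 in DMSO siRNF20 and 10.23 and 10.26 in DMSO siLacZ, with no overlap. Among 21 further ATF4 targets of amino acid supply, SLC7A1 fell in siRNF20 cells (-1.02, SE 0.17) and SLC7A3 in siLacZ cells (-0.92, SE 0.19). In the other background each was lower without passing, SLC7A1 by -0.73 (SE 0.20) and SLC7A3 by -0.54 (SE 0.15). Both carry cationic amino acids, and the list's median was -0.36 in siRNF20 and -0.28 in siLacZ cells. The alternatives were run for the members and not for these lists.

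One-carbon genes outside the members had 1 of 12 fall in siRNF20 cells (MTHFD1 -0.77, SE 0.14) and 2 in siLacZ cells (MTHFD1 -0.80 and GCSH -1.29). MTHFD1 is a cytosolic counterpart of MTHFD2, and GCSH belongs to the glycine cleavage system. In siLacZ cells GCSH read 7.67 on the single RA array, against 9.31 and 8.62 in DMSO. Its siRNF20 arrays overlapped, with 8.81 and 8.58 in RA and 8.67 and 8.75 in DMSO. The kinases of eIF2 with eIF2 and its exchange factor eIF2B had 0 of 13 genes called in each background (median -0.11 in siRNF20 and 0.00 in siLacZ cells). Of 36 measured further sensors and targets of ER stress 0 were called in each (median -0.10 in siRNF20 and -0.08 in siLacZ cells). At an unadjusted p below 0.05, 6 of the 36 were lower and 1 higher in siRNF20 cells, and 7 lower and 4 higher in siLacZ cells. Of the 13 eIF2 genes 2 were lower and 0 higher at that level in siRNF20 cells, and 1 lower and 1 higher in siLacZ cells. Of all genes, 15.3% in siRNF20 and 16.4% in siLacZ cells were below that level in either direction. SEC24D, a coat protein of vesicles leaving the ER, had the largest change of that ER list in siLacZ cells (-1.05, SE 0.29, adjusted p = 0.0885).

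RNF20 mRNA was 6.27 and 5.89 in RA siRNF20 and 8.10 in RA siLacZ, and it was 6.48 and 5.98 in DMSO siRNF20 and 8.24 and 8.09 in DMSO siLacZ. The siRNF20 arrays were all lower than these siLacZ arrays (the GF117 RA siLacZ array read 6.08), by a log2 difference of -2.02 in RA (SE 0.29, adjusted p = 0.110) and -1.94 in DMSO (SE 0.23, adjusted p = 0.237) that did not pass over all genes. For siRNF20, 0 of 35 members were called in RA (0.0107% of all genes, 2 genes) and 0 of 35 in DMSO (0% of all genes). Since RNF20 itself was not called, these counts do not show that the members were unaffected. At an unadjusted p below 0.05, 1 member of each arm was higher in DMSO, SLC7A5 (0.58, SE 0.16) and HSP90B1 (0.29, SE 0.10), where 2.77% of all genes were below that level. In RA, MTHFD2 (0.76, SE 0.17, adjusted p = 0.218) of the amino acid arm and XBP1 (0.73, SE 0.20, adjusted p = 0.336), HSPA5 (0.45, SE 0.13, adjusted p = 0.357) and DNAJB9 (0.83, SE 0.32, adjusted p = 0.586) of the chaperone arm were higher at that level, against 7.93% of all genes.

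**Figure D4:**
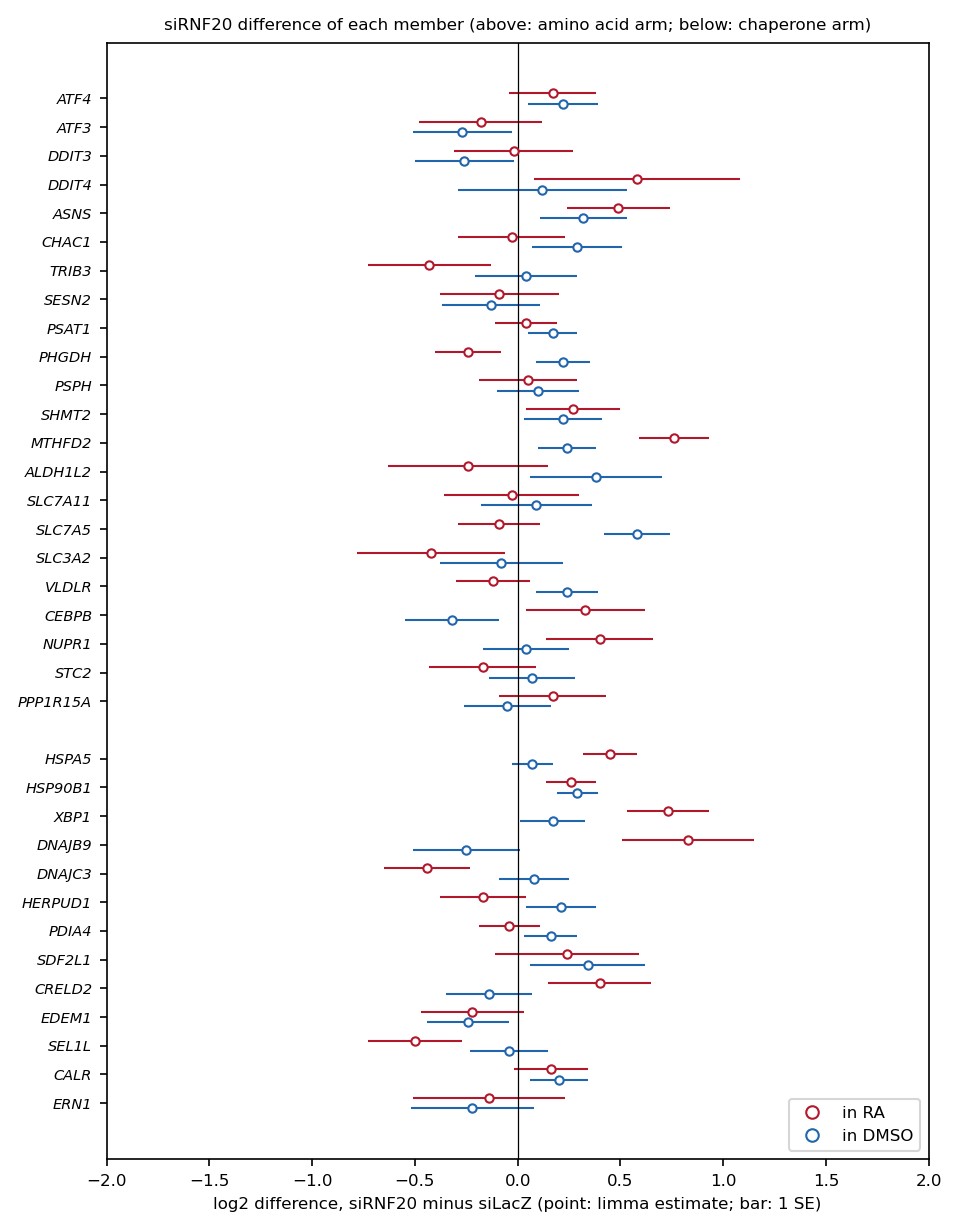
siRNF20 minus siLacZ (log2) for each member in RA and in DMSO with bars of 1 SE, amino acid arm above and chaperone arm below. All points are open because 0 of 35 members passed in either treatment, and the values furthest to the right in RA are those of DNAJB9, MTHFD2 and XBP1.

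SLC7A5 read 8.34 and 8.48 in RA siRNF20 and 8.50 in RA siLacZ, against 8.93 and 8.70 in DMSO siRNF20 and 8.24 and 8.23 in DMSO siLacZ. In RA both siRNF20 arrays were just below the siLacZ array, and in DMSO both were above both siLacZ arrays. DNAJB9 read 6.22 and 5.82 in RA siRNF20 and 5.19 in RA siLacZ, against 5.49 and 5.26 in DMSO siRNF20 and 5.83 and 5.41 in DMSO siLacZ. In RA its siRNF20 arrays were above the siLacZ array, and in DMSO the groups overlapped. The amino acid arm's median siRNF20 difference was -0.02 in RA and 0.11 in DMSO, and the chaperone arm's was 0.16 and 0.08. The medians of all genes were -0.00821 and -0.0110.

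The test of whether the RA response differed between siRNF20 and siLacZ cells called 0 of 35 members and 0% of all genes. So the calls that stand in one background and not in the other, those of HSPA5, XBP1, CHAC1 and ALDH1L2, were not shown to differ between backgrounds. The difference of the responses, siRNF20 minus siLacZ, was 0.39 for HSPA5 (SE 0.16), 0.56 for XBP1 (SE 0.25), -0.32 for CHAC1 (SE 0.34) and -0.62 for ALDH1L2 (SE 0.50), each with an adjusted p of 0.999. Unadjusted p was below 0.05 for MTHFD2 (0.52, SE 0.22), SLC7A5 (-0.67, SE 0.26), DNAJB9 (1.07, SE 0.42) and HSPA5, against 3.93% of all genes. The median difference was -0.05 in the amino acid arm and -0.03 in the chaperone arm. These differences all rest on the single RA siLacZ array.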

How the data were processed

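The deposited values are linear intensities, 1 per array row and array; the authors' background correction, normalization and tools are not given in the sources used here. Per the labels' protocols total RNA was extracted with a column kit and labelled with biotin. Of 1384231 rows 354600 had 1 gene symbol in the platform annotation, and the others were left out. Rows whose mean exceeded the median row were kept, and each gene was summarised as the median log2 intensity of its rows, computed from the deposited intensities with no further normalization. limma 3.58.1 in R 4.3.3 fitted the means of 4 groups to 7 arrays with an intensity trend. Tests are two-sided with Benjamini-Hochberg adjustment over 18732 genes. Simulated data with known changes were run through the fit for RA in siRNF20 cells only, with independent noise of the fitted spread. They do not bear on the comparisons with the single RA siLacZ array. Figures used Python 3.11.15 and matplotlib 3.10.9.

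Motifs were searched in RefSeq promoters (GRCh38.p14). The members and lists were chosen with earlier results of these data known. All members are named, and values per array are given for called and arm-defining members. Those of PSPH, PDIA4, SLC7A5, DNAJB9, TARS1, HSPD1 and GCSH were chosen after their values were seen. Of other lists, called genes and up to 4 with the largest change are named, and NANOG, POU5F1 and ZFP42 as cell markers. Nothing in the labels ties the GF numbers to a shared culture, so they form no block. The p-values rest on the spread between the arrays of the groups that hold 2, pooled and moderated over all genes. The single RA siLacZ array adds no spread, so comparisons with it borrow that of the other groups. For the comparisons of 2 against 2, an exact test cannot go below p = 0.333. The alternatives were all 8 arrays, each array left out, the GF number as a block, quantile normalization, other filters on dim rows, an offset, the mean over rows and no intensity trend.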

Additional observations from a re-analysis of the deposited data

Results flagged for a closer look

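On the GF117 RA siLacZ array, which the comparisons leave out, 5 of 35 members (14.3%) lay above every DMSO array, against 4881 of 18732 genes (26.1%). These were ATF3 (log2 intensity 6.34, highest DMSO array 6.13), TRIB3 (7.33, highest DMSO array 6.50), CEBPB (8.26, highest DMSO array 7.22), PPP1R15A (6.89, highest DMSO array 6.64) and ERN1 (5.76, highest DMSO array 5.58). With all 8 arrays limma called none of these 5 for RA in siLacZ cells, where 7 other members and 1510 of 18747 genes had an unadjusted p below 0.05. That array's gene values correlated at 0.135 to 0.239 with those of the others, and the cause was not tested.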

How the results depend on the processing

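With all 8 arrays 0 members were called for RA in siRNF20 cells and 0 for RA in siLacZ cells, in place of 5 each, and VLDLR in siLacZ cells turned to -0.38. The median of all genes then moved to -0.49 for RA in siLacZ cells. Leaving out single arrays gave 2 to 5 members for RA in siRNF20 cells (330 to 733 of all genes, against 734 with 7 arrays) and 3 to 5 for RA in siLacZ cells (312 to 947 of all genes, against 733). The mean over rows gave 8 members in siRNF20 cells (844 of all genes), and a fit with no intensity trend gave 2 in siLacZ cells (456 of all genes). MTHFD2 and VLDLR lost their calls only with all 8 arrays among the alternatives run. The causes were not tested.

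With the GF number as a replicate block 11 members passed for RA in siRNF20 cells (HSPA5, PDIA4, PSPH, SDF2L1, SHMT2 and TRIB3 in addition, all lower), and 2 for siRNF20 in RA, MTHFD2 (0.69, adjusted p = 0.0425) and XBP1 (0.80, adjusted p = 0.0472). Over all genes the block raised the calls to 1959 for RA in siRNF20 cells, to 1792 for RA in siLacZ cells and to 232 for siRNF20 in RA. Between the 3 groups with both arrays, the deviations of same-numbered arrays from the mean of their group had correlations of 0.297, 0.301 and 0.364, a hint from the data only. Without the GF120 RA siLacZ array only RA in siRNF20 cells and siRNF20 in DMSO have values. Dim genes such as ALDH1L2 limit the size of a change.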

Other observations

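Stress genes outside ATF4 and the ER were lower with RA in siLacZ cells in a few cases, where 2.03% of all genes were called lower. Of 10 measured genes of the heat shock response, the mitochondrial chaperonin genes HSPE1 (-1.10, SE 0.25, adjusted p = 0.0445) and HSPD1 (-0.91, SE 0.16, adjusted p = 0.0121) fell there, while 0 passed in siRNF20 cells. HSPD1 read 10.38 and 10.26 in RA siRNF20 and 9.51 in RA siLacZ, against 10.49 and 10.51 in DMSO siRNF20 and 10.54 and 10.31 in DMSO siLacZ, so the single RA siLacZ array was the low one. Of 11 measured targets of the oxidative stress factor NRF2, the thioredoxin gene TXN fell in siLacZ cells (-1.12, SE 0.19, adjusted p = 0.0101) and 0 passed in siRNF20 cells. TXN was lower in siRNF20 cells too (-0.50, SE 0.15) without passing, and its siLacZ change rests on the single RA array. The heat shock and NRF2 lists had median changes of -0.15 and -0.30 in siRNF20 cells, and of -0.22 and -0.28 in siLacZ cells. At an unadjusted p below 0.05 in siRNF20 cells, 1 heat shock gene was lower and 0 higher, and 3 NRF2 targets were lower and 2 higher. In siLacZ cells 3 of each list were lower and 0 higher at that level, and of all genes 15.3% in siRNF20 and 16.4% in siLacZ cells were below it in either direction.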
